A study of Oryza sativa with 12 samples.

Results

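The genes described here are those whose level was lower in every salt-treated leaf library than in every control leaf library, in the introgression line IL22 and in its parent OLESA alike. For each library, each count was divided by the library total and multiplied by 1000000 (CPM). A gene was a member of the set when its lowest CPM among the 6 control libraries was at least 1, and at least 1.25 times its highest CPM among the 6 salt libraries. Of 36844 features counted, 71 met this rule, and these 71 are 0.428% of the 16580 features that reached 1 CPM in all control libraries. The members were thus chosen by their salt and control levels in both genotypes, so the lower levels in salt are the reason for membership and are given as a description, with no test.

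The samples were leaves of hydroponically grown rice seedlings (*Oryza sativa*), in 4 groups of 3 libraries. IL22 salt and IL22 control are the salt-tolerant line, a *japonica* background that carries *indica* segments of FL478, with and without 80 mM NaCl for 24 h. OLESA salt and OLESA control are the salt-sensitive *japonica* parent under the same conditions. The sample labels name this line PL12, which was taken to be OLESA because OLESA is the parent set against IL22 in the study's RNA-Seq design. IL22 is a single introgression line, and each library was made from the pooled leaves of 4 plants.

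When salt reaches the root, a rice plant meets first an osmotic stress, which slows leaf growth and closes stomata, and then the accumulation of sodium ions in the shoot. Leaves answer by raising transcripts for protection and signalling and by lowering others, many of which serve growth, photosynthesis and nutrient use in unstressed plants. A gene lowered in a tolerant and in a sensitive genotype belongs to the part of that response that the genotypes share. Neither the deposited counts nor the gene reference at hand pairs the locus IDs of the members with gene names, so no function can be given to any of them. For the same reason only 2 locus IDs are printed, and the other members are identified by chromosome and by rank, where rank 1 has the largest ratio of lowest control CPM to highest salt CPM and rank 71 the smallest.

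Library totals ran from 11505396 to 23578477 counts. Within groups, the log2 CPM of all tested genes correlated at r = 0.946 to 0.987 across genes, which are not independent replicates. The lowest values were those of IL22 control replicate 1 with replicates 2 and 3 of its group (0.953 and 0.946). That library correlated more closely with OLESA control replicates 1, 2 and 3 (0.969, 0.978 and 0.967), and the cause was not tested. Counts were fitted in edgeR with TMM factors, and 20760 genes were tested with the quasi-likelihood test. A gene counted as a DEG where its Benjamini-Hochberg adjusted p was at most 0.05 and its log2 fold change (FC) lay beyond 0.5. All 71 members passed the filter on low counts, and the lowest count of any member in a control library was 19. Scaling by library total placed the median tested gene 0.12 (IL22) and 0.158 (OLESA) higher in salt, on the log2 scale, than TMM did, so falls are smaller in CPM than in the fit.

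The 71 members together were a small part of each library. Their summed level was 1193, 1297 and 1281 CPM in the IL22 salt libraries, against 3158, 2891 and 3068 CPM in IL22 control. In OLESA it was 1435, 1373 and 1143 CPM in salt, against 3280, 3309 and 3871 CPM in control. The highest sum in salt was below the lowest in control, as the rule fixes, and the genotypes overlapped within salt. Within control they did not overlap, since all 3 IL22 sums were below all 3 OLESA sums. Abundant members weigh most in such sums. In these bulk leaf samples, fewer cells of a type and less RNA per cell cannot be told apart. The typical member, taken as the median over members, stood at 39.8%, 40.6% and 41% of its own 6-library control mean in the IL22 salt libraries, and at 36.7%, 38.3% and 24.4% in the OLESA salt libraries. Thus OLESA salt replicate 3 lay below the other 5 salt libraries by this measure. In control the typical member overlapped between the genotypes, at 89.9%, 92.7% and 98.2% in IL22 and at 89.2%, 97.2% and 108.3% in OLESA.

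**Figure D1:**
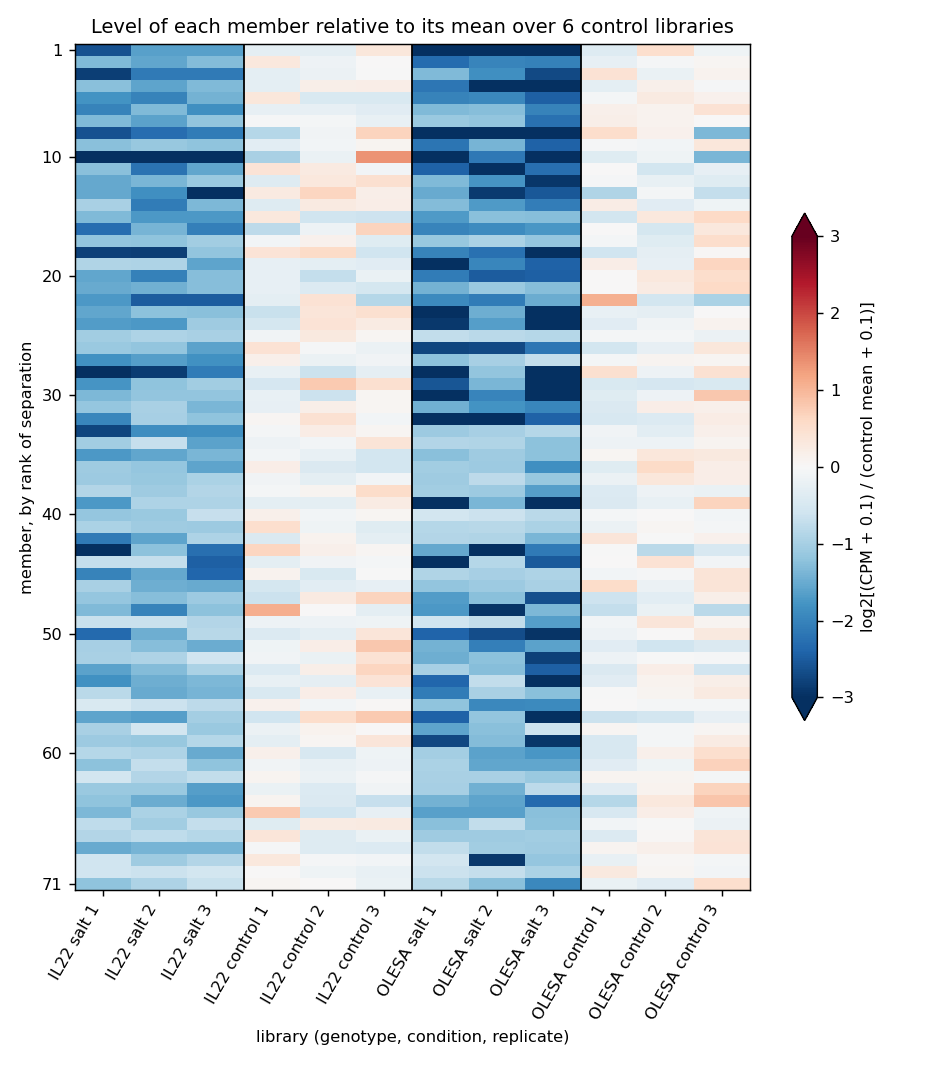
Level of the 71 members (rows, rank 1 at the top) in the 12 libraries (columns, by genotype, condition and replicate), as log2 of CPM plus 0.1 over the member's mean of 6 control libraries plus 0.1, in colours that stop at -3 and 3. Both salt blocks are blue throughout because the rule requires it. Among the salt libraries, OLESA salt replicate 3 is darkest, with a median member at 24.4% of control.

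Os10g0528900, a locus on Chromosome 10, had the widest gap of all members (rank 1, ratio 2.61). It was measured at 0.261, 0.609 and 0.608 CPM in IL22 salt, against 1.70, 1.71 and 2.71 CPM in IL22 control. In OLESA it was at 0, 0.0822 and 0.0974 CPM in salt, against 1.59, 3.01 and 1.91 CPM in control. The gene is thus weakly expressed in control leaves of both genotypes and close to the detection limit in salt-treated OLESA, where the 3 libraries held 0, 1 and 2 counts. Pooled counts gave a level 35.7-fold lower in salt in OLESA (3 counts in salt against 113 in control, exact 95% interval 11.9 to 176) and 4.4-fold lower in IL22 (21 counts in salt against 100 in control, exact 95% interval 2.73 to 7.42). These intervals cover counting error only. They do not allow for the choice of this gene by its gap, so they describe the counts and are no test of the fall.

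The genotypes did not overlap in salt for this gene, with all 3 IL22 libraries above all 3 OLESA libraries. The difference in salt change between IL22 and OLESA was 2.96 on the log2 scale (SE 0.91), at an adjusted p of 0.0731 by the quasi-likelihood test of edgeR, so it was not called. Over the alternative fits this adjusted p ran from 0.0419 with DESeq2 to 0.169. The level in salt itself differed between IL22 and OLESA by a log2 FC of 2.80 (SE 0.77), also not called (adjusted p = 0.0703 from the same edgeR test, with a range of 0.0440 to 0.203 over the alternatives). In control the 2 genotypes differed by a log2 FC of -0.16 (SE 0.48).

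Os12g0189300, on Chromosome 12, was the most abundant member in control leaves and had rank 3 in separation (ratio 2.05). Its level was 73.9, 120.4 and 120.2 CPM in IL22 salt, against 431.5, 464.7 and 519.0 CPM in IL22 control. In OLESA it was 210.9, 147.2 and 80.1 CPM in salt, against 714.0, 457.8 and 570.1 CPM in control. IL22 and OLESA overlapped under both conditions, and the OLESA salt libraries spread more widely than those of IL22. The mean was 4.5-fold lower in salt in IL22 and 3.97-fold lower in OLESA. The salt change differed between the genotypes by -0.20 on the log2 scale (SE 0.46, edgeR quasi-likelihood adjusted p = 0.817), a difference that lay within its error and changed sign when replicate 1 of OLESA salt (0.17) or of IL22 salt (0.01) was left out.

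The other members with the widest gaps differed in level and in whether the genotypes overlapped. The Chromosome 11 member of rank 2 was at 18.5, 15.7 and 18.8 CPM in IL22 salt, against 57.7, 41.5 and 46.6 CPM in IL22 control, and at 9.37, 11.7 and 11.2 CPM in OLESA salt, against 39.4, 45.5 and 48.2 CPM in OLESA control. Its control levels overlapped between genotypes, whereas its salt levels were higher in all IL22 libraries. The Chromosome 9 member of rank 5 was at 16.4, 14.0 and 21.1 CPM in IL22 salt, against 72.1, 41.4 and 41.7 CPM in IL22 control, and at 14.2, 14.9 and 10.3 CPM in OLESA salt, against 54.6, 69.1 and 62.6 CPM in OLESA control. The Chromosome 1 member of rank 10 had the deepest mean fall in IL22 (16.2-fold), but its IL22 control libraries spread from 7.99 to 40.5 CPM, and in OLESA salt 3.54 CPM in replicate 2 stood beside 0 and 0.0487 CPM. The Chromosome 4 member of rank 8 was at 0.522 to 0.782 CPM in IL22 salt, against 2.00 to 5.92 CPM in IL22 control. In OLESA salt its libraries held 0, 3 and 1 counts, against 33 to 81 counts in OLESA control.

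**Figure D2:**
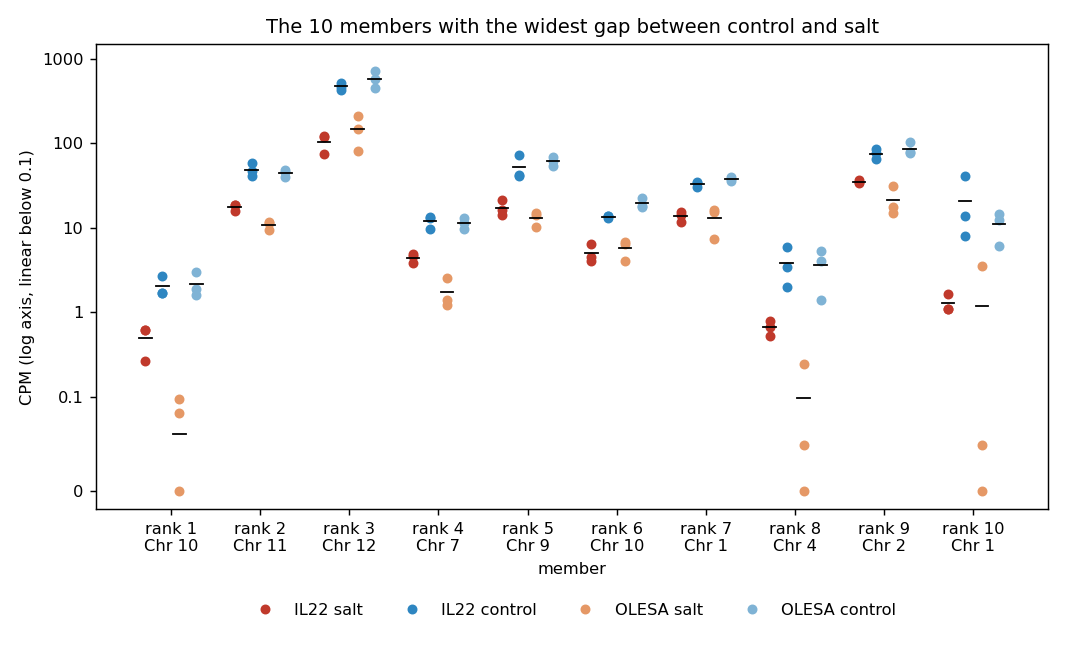
CPM of the 10 members with the widest gap, on a log axis that is linear below 0.1, with 1 point per library and a bar at each group mean. For every member the salt points of IL22 and OLESA lie below all control points, as the rule requires, and ranks 1, 8 and 10 each have a library at 0 in OLESA salt.

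The set was not made up of rare transcripts alone. Mean control levels ran from 1.54 to 526.2 CPM with a median of 12.1 CPM, compared with a median of 17.2 CPM over the 16580 features that passed the level part of the rule. Members at 100 CPM or more in control numbered 11 (15.5%, compared with 8.97% of those features), and 20 members were under 5 CPM. After Os12g0189300, the most abundant members were a Chromosome 6 member of rank 42 and a Chromosome 1 member of rank 41. The Chromosome 6 member was at 58.4, 85.0 and 133.8 CPM in IL22 salt, against 189.8, 276.2 and 207.3 CPM in IL22 control, and at 138.0, 136.5 and 98.7 CPM in OLESA salt, against 326.3, 255.1 and 279.0 CPM in OLESA control. The Chromosome 1 member was at 115.8, 105.8 and 104.6 CPM in IL22 salt, against 314.2, 203.7 and 173.2 CPM in IL22 control, and at 123.7, 125.6 and 115.7 CPM in OLESA salt, against 197.8, 230.9 and 214.3 CPM in OLESA control. Neither of them separated the genotypes in control or in salt.

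The depth of the fall was moderate for most members. From group means, levels in salt were lower by a factor of 1.41 to 16.2 in IL22 (median 2.41) and of 1.54 to 36.6 in OLESA (median 3.14). A fall of at least 2-fold was found for 56 members in IL22, for 64 in OLESA and for 51 in both. A fall of at least 4-fold was found for 10 in IL22, for 23 in OLESA and for 7 in both. In the fit, the median log2 FC of the members was -1.41 in IL22 and -1.80 in OLESA, where the median over all tested genes was -0.03 and 0.01. In IL22, 49 of the 71 members were down-regulated DEGs and the remaining 22 were not called, against a background of 2.25% of tested genes called lower. In OLESA, all 71 were called lower, against a background of 9.89%. As the rule chose the members from this contrast, these counts only describe them. The IL22 count depended on which libraries were fitted, being 24 and 27 when replicates 2 and 3 of IL22 control were left out in turn, and 22, 22 and 29 when IL22 salt replicates 1, 2 and 3 were. The background moved with it, being 0.519% to 0.926% in 4 of these 5 fits.

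The 1.25-fold limit lies in a continuous distribution. The 5 members nearest to it had ratios of 1.25 to 1.27, and the 5 genes just outside it had ratios of 1.23 to 1.25. The nearest gene outside had a lowest control level of 62.6 CPM and a highest salt level of 50.2 CPM, while the member nearest the limit had 22.1 CPM and 17.6 CPM. The limits were set by different libraries for different members. The lowest control library was OLESA control replicate 1 for 18 members and IL22 control replicate 1 for 16, and the highest salt library was IL22 salt replicate 3 for 21, whereas OLESA salt replicate 3 was the highest for 5.

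Members tended to be lowered further in OLESA than in IL22, but the difference passed the test for none of them. The interaction, that is, the salt change in IL22 minus that in OLESA, was above 0 for 52 members (73.2%), compared with 50.4% of all tested genes, and its median was 0.29 on the log2 scale, compared with 0.01. Without OLESA salt replicate 3, 43 members had an interaction above 0. This leaning stood beside a generally larger response in OLESA, where the median size of the log2 FC over all tested genes was 0.46, compared with 0.31 in IL22. All members fall in salt by the rule, whereas the tested genes rise or fall, so their shares are not like for like. By edgeR's quasi-likelihood test 0 of 71 members were called for the interaction, against a background of 4.99%. The smallest adjusted p from this test was 0.0534, for the Chromosome 2 member of rank 33. That member went against the leaning and fell further in IL22 (interaction -1.27, SE 0.35). Over the alternative fits its adjusted p ran from 0.0136 with DESeq2 to 0.138. The background of 4.99% was itself unstable. It was 0.267% or less in 9 of the 12 fits that left out 1 library and 0.111% with the replicate block, but 23.3% without IL22 control replicate 1, so nothing is read from 0 members against 4.99%. Before adjustment, at a p of 0.05 with the log2 FC limit kept, 15 members passed (21.1%, compared with 24.3% of tested genes), 12 of them with an interaction above 0 (16.9%, compared with 9.83%) and 3 below 0 (4.23%, compared with 14.5%). DESeq2 called 6 members (8.45%, compared with 13.4% of the genes it tested). By requiring a gap in both genotypes, the rule disfavours genes that respond in only 1 of them, so the low count is not independent of the choice of members. A missed threshold does not show equal responses: the SE of the interaction had a median of 0.47 over members.

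**Figure D3:**
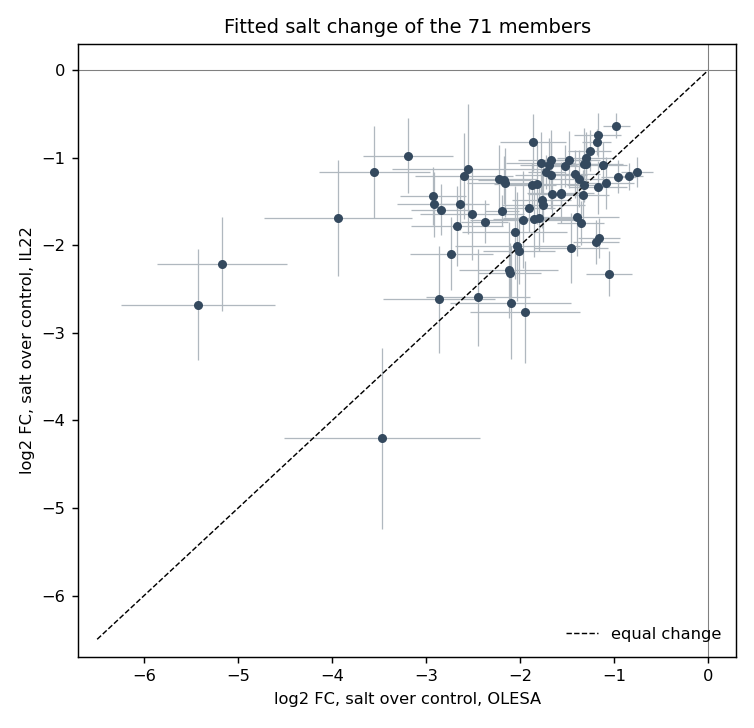
Fitted log2 FC of salt over control in OLESA (x axis) and IL22 (y axis) for the 71 members, with bars of 1 SE, and a dashed line of equal change. The values run from -5.43 to -0.76 in OLESA and from -4.21 to -0.63 in IL22, and 52 members lie above the line, where the fall is larger in OLESA.

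After Os10g0528900 and the member of rank 8, the next differences in salt change by size were those of 3 members with mean control levels of 2.52 to 11.6 CPM. The Chromosome 6 member of rank 19 was at 1.31, 1.29 and 0.782 CPM in IL22 salt, against 2.1, 2.02 and 1.97 CPM in IL22 control, and at 0.169, 0.575 and 0.389 CPM in OLESA salt, against 2.92, 2.12 and 3.99 CPM in OLESA control. Its interaction was 2.22 (SE 0.64, edgeR quasi-likelihood adjusted p = 0.0611). In this gene IL22 was above OLESA in all salt libraries and below it in all control libraries, and the same held for the Chromosome 2 member of rank 20 alone. The Chromosome 4 member of rank 30 was at 4.49, 5.01 and 5.04 CPM in IL22 salt, against 9.93, 7.39 and 12.1 CPM in IL22 control, and at 0.791, 2.88 and 0.389 CPM in OLESA salt, against 9.02, 10.4 and 20.5 CPM in OLESA control. Its interaction was 2.39 (SE 0.77, edgeR quasi-likelihood adjusted p = 0.0862). The Chromosome 4 member of rank 32 had no count in OLESA salt replicates 1 and 2 and 0.925 CPM in replicate 3, against 3.85 to 6.23 CPM in OLESA control, while IL22 salt held 1.31 to 2.64 CPM, against 5.06 to 7.46 CPM in IL22 control.

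Without salt, no member passed the test between IL22 and OLESA. By edgeR's quasi-likelihood test 0 of 71 members were DEGs between IL22 and OLESA in control, against a background of 1.38% of tested genes. At an unadjusted p of 0.05, 8 members passed (11.3%, compared with 15.6% of tested genes), 2 higher (2.82%, compared with 9.93%) and 6 lower in IL22 (8.45%, compared with 5.68%), and DESeq2 called 4 (5.63%, compared with 5.94% of the genes it tested). Without IL22 control replicate 1, edgeR called 4 members, but also 18.9% of all tested genes. The log2 FC of IL22 over OLESA ran from -0.81 to 0.90 with a median of -0.13. The smallest unadjusted p belonged to a Chromosome 3 member of rank 21 (adjusted p = 0.0604 from edgeR). It was at 158.9, 141.5 and 131.1 CPM in IL22 control, against 191.7, 223.0 and 287.2 CPM in OLESA control, groups that did not overlap. Values of IL22 and OLESA control did not overlap in 14 members (19.7%), compared with 15.9% of all tested genes. IL22 was above OLESA in 4 of them (5.63%, compared with 11.2%) and below it in 10 (14.1%, compared with 4.69%). The rule asks for high control levels in both genotypes, so these results are not independent of the choice of members.

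Under salt, 3 of 71 members were DEGs between IL22 and OLESA (4.23%), against a background of 2.85% of tested genes. Higher in IL22 was 1 member (1.41%, background 1.2%), the Chromosome 7 member of rank 4. It was at 4.86, 3.86 and 4.61 CPM in IL22 salt, against 2.54, 1.40 and 1.22 CPM in OLESA salt, with a log2 FC at 1.27 (SE 0.31, edgeR quasi-likelihood adjusted p = 0.0479). Its control levels were 9.58, 13.2 and 13.5 CPM in IL22, against 9.56, 12.9 and 11.4 CPM in OLESA. The other 2 called members were lower in IL22 (2.82%, background 1.65%). The Chromosome 2 member of rank 33 was at 6.69, 12.6 and 12.8 CPM in IL22 salt, against 21.5, 22.9 and 25.2 CPM in OLESA salt, with a log2 FC at -1.20 (SE 0.25, edgeR quasi-likelihood adjusted p = 0.0232). Its control levels overlapped, with 44.0, 53.4 and 47.8 CPM in IL22, against 42.4, 36.7 and 51.1 CPM in OLESA. The Chromosome 7 member of rank 45 was at 52.8, 73.7 and 40.6 CPM in IL22 salt, against 113.3, 107.3 and 112.5 CPM in OLESA salt, with a log2 FC at -1.08 (SE 0.24, edgeR quasi-likelihood adjusted p = 0.0332). Its control levels overlapped, with 228.4, 154.6 and 210.4 CPM in IL22, against 200.6, 206.8 and 276.3 CPM in OLESA.

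These calls were close to the threshold, and their share of the members was near the background. Over the alternative fits the adjusted p ran from 0.00428 to 0.168 for the member of rank 4, from 0.000632 to 0.0791 for rank 33 and from 0.00204 to 0.152 for rank 45. With the replicate block, only the member of rank 33 was called (1.41%, background 1.63%), at edgeR adjusted p-values of 0.0234 for rank 33, 0.0775 for rank 45 and 0.0993 for rank 4. Leaving out replicate 1 of IL22 control gave 7 called members (9.86%, background 8.44%), and replicate 2 of OLESA control gave 1 (background 1.77%). Replicates 1 and 3 of IL22 salt gave 0 (background 0.896%) and 1 (background 1.12%). DESeq2 called 11 members (15.5%, background 7.59%). At an unadjusted p of 0.05, 18 members passed (25.4%, compared with 17.3% of tested genes), of which 14 members were higher in IL22 salt (19.7%, compared with 7.5% of tested genes) and 4 were lower (5.63%, compared with 9.77%). IL22 salt lay above OLESA salt without overlap in 19 members (26.8%, compared with 17.9% of all tested genes) and below it in 6 (8.45%, compared with 13.4%). The median log2 FC of IL22 over OLESA in salt was 0.20 over members, compared with -0.00 over all tested genes. The rule chose members by low salt levels, whereas the tested genes rise or fall in salt. These shares are therefore not like for like, and they are not independent of the choice of members.

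**Figure D4:**
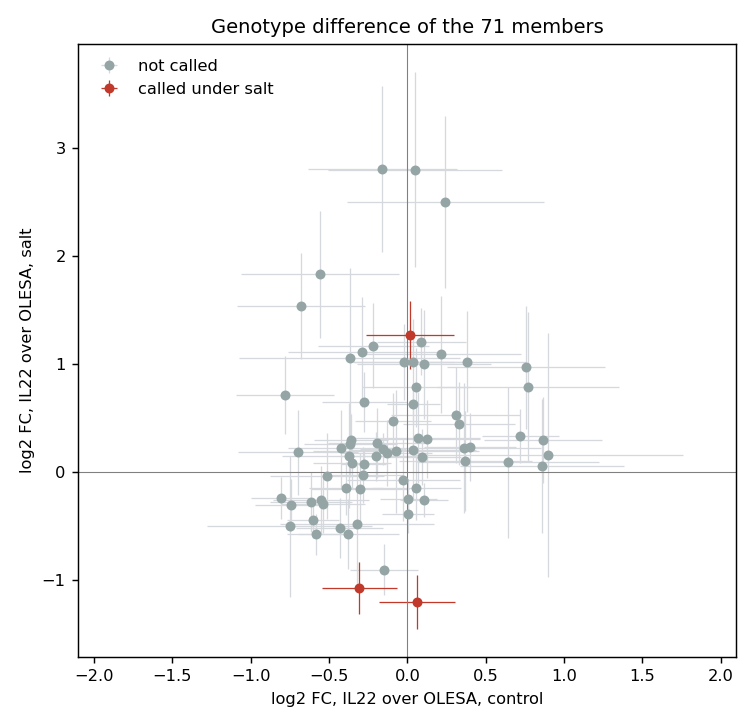
Log2 FC of IL22 over OLESA in control (x axis) and in salt (y axis) for the 71 members, with bars of 1 SE. The 3 members called under salt are red, at 1.27, -1.08 and -1.20 on the salt axis. Values run from -0.81 to 0.90 in control and from -1.20 to 2.80 in salt, with median sizes of 0.307 and 0.313. The highest in salt, those of ranks 1 and 8, rest on 0 to 3 counts per OLESA salt library.

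Among the members, replicates of OLESA salt differed more than those of the other groups, whereas over tested genes IL22 control had the widest spread. The median coefficient of variation of the members was 19.6% in IL22 salt, 21.2% in IL22 control, 30.3% in OLESA salt and 18.4% in OLESA control. Among genes tested at a mean of 1 CPM or more in the group, it was 12.3%, 24.0%, 20.2% and 19.6% in the same order. No such floor was applied to the members, some of which had salt means under 1 CPM, so these medians are not like for like. The highest OLESA salt library was at least 3 times the lowest in 21 members, compared with 4 members in IL22 salt, 1 in IL22 control and 3 in OLESA control. The 21 include 5 members with no count in an OLESA salt library, which pass this limit automatically. The share over all features was not computed. Replicate 3 was the lowest OLESA salt library in 40 of 71 members (56.3%), although it was the lowest in 26.8% and the highest in 49.5% of the features that passed the level part of the rule.

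A subset of members had a common profile over the OLESA salt libraries. In 12 members (16.9%), OLESA salt replicate 2 was at least 2 times both replicates 1 and 3, which was the case in 0.501% of the features that passed the level part of the rule. Those features need not fall in salt, so these shares are not like for like. Some of the 12 rest on few counts. In OLESA salt replicates 1, 2 and 3, rank 8 held 0, 3 and 1 counts, and rank 44 held 0, 12 and 5. These 12 were singled out by this profile after their values were seen, so no test was made. Their higher level in OLESA salt replicate 2 than in replicates 1 and 3 follows from that choice. Their level in OLESA salt was 0% to 21.9% of the OLESA control mean in replicate 1 (median 11.5%), 6.84% to 60.4% in replicate 2 (median 38.1%) and 0.444% to 13.6% in replicate 3 (median 6.20%). In the 3 IL22 salt libraries the same 12 had medians of 27.6%, 34.5% and 37.7% of the IL22 control mean. The remaining 59 members had medians of 41.3%, 35.9% and 29.7% in OLESA salt replicates 1, 2 and 3. For example, the Chromosome 12 member of rank 23 was at 11.8, 14.9 and 14.7 CPM in IL22 salt, against 22.1, 45.2 and 48.8 CPM in IL22 control, and at 4.24, 12.6 and 1.66 CPM in OLESA salt, against 29.9, 29.1 and 35.3 CPM in OLESA control. The Chromosome 10 member of rank 39 was at 3.56, 11.6 and 2.92 CPM in OLESA salt, against 22.2, 26.0 and 48.0 CPM in OLESA control.

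**Figure D5:**
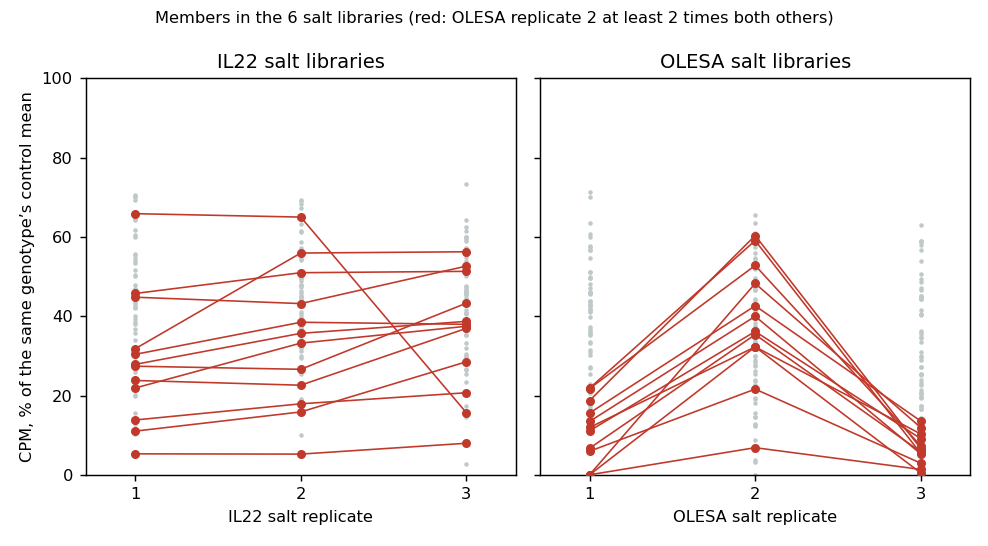
CPM of the 71 members in each IL22 salt (left) and OLESA salt (right) library as a percentage of the mean of the same genotype's control libraries, with 1 point per member. Lines join the points of each of the 12 members, in red, whose OLESA salt replicate 2 is at least 2 times both others. In OLESA their medians are 11.5%, 38.1% and 6.20% in replicates 1, 2 and 3, where the high replicate 2 follows from how the 12 were chosen. In IL22 they are 27.6%, 34.5% and 37.7%.

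All 71 members carried a rice locus ID, whose digits give the chromosome. Every one of the 12 chromosomes held between 3 and 11 members. Chromosome 4 held 11 of 71 (15.5%), compared with 8.76% of the features that passed the level part of the rule. Per such feature, Chromosome 11 (0.741%) and Chromosome 10 (0.726%) had nearly the same share of members as Chromosome 4 (0.758%), and Chromosome 6 the smallest (0.226%). With TMM-normalized CPM the order by number changed, and Chromosome 2 held 16 genes, compared with 14 on Chromosome 4. Chromosome 2 also had more features that passed the level part of the rule (2001, compared with 1452). Shares per feature were not computed for the TMM list. Chromosomes 1, 2 and 3, the richest in expressed genes, held 7 each. In tested genes ordered by ID, none of the members lay in a stretch rich in genotype DEGs: 0 of 71 had 5 or more DEGs between IL22 and OLESA among their 50 nearest genes, compared with 5.58% of all tested genes. This count is of the neighbouring genes and leaves the member itself out, and position by ID is approximate. The cause of the absence was not tested.

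Some members were close neighbours in ID order. On Chromosome 10, Os10g0528900 and the members of ranks 67 and 6 lay within steps of 8 and 10 tested genes. They differed in level, since rank 67 was at 77.3, 85.0 and 79.3 CPM in IL22 salt, against 183.2, 109.2 and 124.3 CPM in IL22 control, and at 68.2, 68.9 and 69.5 CPM in OLESA salt, against 107.6, 147.7 and 187.9 CPM in OLESA control. Rank 6 was at 4.08, 6.50 and 4.52 CPM in IL22 salt, against 13.9, 13.8 and 13.1 CPM in IL22 control, and at 6.49, 6.74 and 4.04 CPM in OLESA salt, against 18.2, 17.7 and 22.4 CPM in OLESA control. On Chromosome 2 the members of ranks 54 and 59 lay 4 tested genes apart and both belonged to the 12 with high OLESA salt replicate 2. Rank 54 was at 3.16, 10.2 and 1.12 CPM and rank 59 at 6.55, 17.9 and 5.70 CPM in OLESA salt. The members of ranks 14 and 24 lay 7 tested genes apart on Chromosome 11. Neighbours with similar sequence could share fragments, and the sources used here do not state how the authors counted such fragments.

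The shared set was smaller than the list from each genotype alone, but a rule over fewer libraries is easier to meet. Applied to the 6 IL22 libraries, the rule found 516 genes, and applied to the 6 OLESA libraries, it found 1090. The lists had 129 genes in common, 25% of the IL22 list and 11.8% of the OLESA list, and the 71 members are those of the 129 whose gap also held across genotypes. The share over all features was not computed for this overlap, so these shares are a description only. The mirror rule, with salt libraries above all control libraries by the same margin, found 370 genes.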

How the data were processed

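Stranded mRNA libraries of rice leaves, 3 for each combination of genotype (IL22, OLESA) and condition (80 mM NaCl for 24 h, control), were sequenced. The authors deposited raw fragment counts per gene. According to the supplementary methods and the submitters' processing notes, demultiplexing used bcl2fastq 2.20 and adapter masking used cutadapt 1.11, after which reads were trimmed with BBDuk, aligned with STAR 2.5.2b (IRGSP-1.0) and counted with featureCounts 1.5.1. The supplement also names an *indica* alignment, but the deposited IDs are of the *japonica* annotation.

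Differential expression was tested in edgeR 4.0.16 under R 4.3.3 (TMM, filterByExpr with a minimum count of 10 and a minimum total of 15, and the quasi-likelihood test with 1 mean per group over 12 libraries). Standard errors were derived from the F statistic. P-values measure the spread between libraries of pooled plants. The fits were repeated with DESeq2 1.42.0, with RLE or upper-quartile factors, with no filter, with a replicate block, at an unadjusted p and without each library. Steps were tested on simulated data.

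The members and lists were chosen with earlier results of these data known. Members described one by one were those widest in separation, highest in control or called between genotypes, and others were chosen after their values were seen. Of 36844 feature IDs, 1 matched the gene reference (assembly ASM3414082v1) and 0 members did. Planned gene lists, leaf markers and promoter sequences were therefore not used here.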

Additional observations from a re-analysis of the deposited data

How the results depend on the processing

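The number of genes that met the rule was 115 with TMM-normalized and 111 with RLE-normalized CPM, and these lists held 71 and 70 of the 71 members. It was 270, 20 and 3 with required ratios of 1, 1.5 and 2, and 45 with a lowest control level of 5 CPM. It was 516 with the IL22 libraries alone and 1090 with the OLESA libraries alone. Leaving out 1 library gave 75 to 100, since fewer libraries make the rule easier to meet. With TMM-normalized CPM, Chromosomes 1, 2, 3, 6, 7 and 8 held 12, 16, 14, 6, 11 and 7 genes, Chromosome 4 held 14, and the other chromosomes stayed within 1.5 times their number.

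Members called between IL22 and OLESA in control were 4 with DESeq2 (5.94% of all tested genes called), 1 without a filter on low counts (1.76%), 8 at an unadjusted p (15.6%), and 0 to 4 when 1 library was left out (0.741% to 18.9%). Under salt they were 11 with DESeq2 (7.59%), 18 at an unadjusted p (17.3%), and 0 to 7 when 1 library was left out (0.896% to 8.44%). For the interaction they were 6 with DESeq2 (13.4%), 2 without a filter (4.52%), 15 at an unadjusted p (24.3%), and 0 to 3 when 1 library was left out (0.0891% to 23.3%). The highest of these shares were those without IL22 control replicate 1. Members called lower in salt in IL22 ranged from 22 to 60 when 1 library was left out (0.519% to 8.34%). RLE and upper-quartile factors changed none of these counts by more than 1.5 times. The cause of these shifts was not tested.

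The replicate block called 1 member between the genotypes under salt, and moved no other of these counts by more than 1.5 times. Libraries with the same number did not deviate together (r from -0.382 to 0.2 across genes), so the numbers were not taken as pairs. The interaction of Os12g0189300 ran from -0.52 to 0.17 when 1 library was left out, and was 0.17 without OLESA salt replicate 1 and 0.01 without IL22 salt replicate 1. Members below 5 CPM in control are limited by counting error in salt.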
